A study of Malus domestica with 6 samples.

Results

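Of the 1261 gene models in the deposited table of apple exocarp, 5 were chosen by their table identifiers as cutin precursor and cuticle export genes. They are GPAT6 (MDP0000479163), 2 copies of ABCG11 (MDP0000200335 and MDP0000248808) and 2 genes described as ABC-2 type transporters (MDP0000094058 and MDP0000149064). All 5 were found in the table. They were chosen with the difference between russeted and waxy skin known, and the table itself lists only genes selected for that difference, so the levels by skin type are a description, and where a fitted value or a threshold is given for them nothing is read from it. Names come from the Arabidopsis match, symbol and description that the table gives.

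The exocarp is the outer skin of the fruit, sampled here in October 2012 from orchard-grown Malus domestica. The 3 russeted varieties, St Edmund Pippin, Reinette Parmentier and Patte de Loup, carry rough corky skin over the whole fruit, and the 3 waxy varieties, AG94, AF42 and Gala, carry smooth skin covered by wax. No treatment separates the groups, which differ as varieties as well as in skin type, so skin type and any other difference between the varieties cannot be told apart. Each variety gave 1 library, and the SD of a phenotype mean is therefore a spread between varieties (n = 3).

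The cuticle is the lipid film on the outer wall of epidermal cells. Its polymer, cutin, is built from hydroxylated fatty acids that are joined to glycerol inside the cell, carried out through the plasma membrane and linked in the wall, while waxes fill and cover the polymer. In Arabidopsis GPAT6 attaches fatty acids to glycerol for cutin, above all in flowers, and ABCG11 is a half-size transporter of the ABCG family needed for the export of cutin and wax lipids. Russet skin is a cork layer that forms beneath a failed cuticle, and its cell walls carry suberin, a related polymer.

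The 4 transporter genes share a domain annotation in the table, an ATP-binding cassette domain and an ABC-2 type membrane domain, and GPAT6 carries an acyltransferase domain. The ABCG11 copies have coding lengths of 2313 and 2565 bases. The other transporter genes, both matched to the Arabidopsis gene AT3G21090, have 2043 and 2055 bases, and GPAT6 has 1419. Reads were assigned to these genes almost without ambiguity: 100% of GPAT6 reads were unique to it, and between 95.2% and 98.9% of the reads of each transporter gene. Positions are not given, since no coordinates of this annotation were used here.

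Mapped reads ranged from 9.44 to 19.1 M per library. Levels are RPKM, reads per kilobase of coding length and per M mapped reads, which allows comparison between genes. The bounds given with a level are exact 95% Poisson intervals of its reads and cover counting error only. All 5 genes are lower in russeted skin, and the bulk libraries cannot tell fewer cells of a type from less RNA per cell.

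GPAT6 was read at 249 RPKM in AF42, 238 RPKM in AG94 and 158 RPKM in Gala. In the russeted varieties it was read at 20.6 RPKM in Patte de Loup, 18.8 RPKM in Reinette Parmentier and 4.67 RPKM in St Edmund Pippin. The skin types did not overlap, and the lowest waxy level was 7.66 times the highest russeted one. The means were 215 ± 49.8 RPKM (SD, n = 3) in waxy and 14.7 ± 8.71 RPKM in russeted exocarp, a ratio of 14.6. GPAT6 ranked 40 of the 1261 listed genes by level in AF42 and 956 in St Edmund Pippin.

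Some neighbours in that order lay close together. Patte de Loup and Reinette Parmentier did not differ beyond counting error in GPAT6 (502 and 507 reads; Reinette Parmentier over Patte de Loup 0.911, interval 0.804 to 1.03). AG94 stood at 0.955 of AF42 (interval 0.917 to 0.996). St Edmund Pippin was 4.02 times lower than Reinette Parmentier on 75 reads.

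The more abundant ABCG11 copy, MDP0000200335, was read at 184 RPKM in AF42, 112 RPKM in AG94 and 61.8 RPKM in Gala. Among russeted varieties it reached 10.01 RPKM in Reinette Parmentier, against 1.51 RPKM in Patte de Loup and 0.95 RPKM in St Edmund Pippin. No russeted level came near a waxy one, but Reinette Parmentier stood apart from the other 2 russeted varieties. The means were 120 ± 61.7 RPKM in waxy and 4.16 ± 5.08 RPKM in russeted exocarp, a ratio of 28.8. St Edmund Pippin and Patte de Loup, with 25 and 60 reads, did not differ beyond counting error (ratio 0.632, interval 0.38 to 1.02).

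The second copy, MDP0000248808, was the least abundant of the 5 genes in every library. It was read at 14.5 RPKM in AF42, 10.4 RPKM in AG94 and 4.67 RPKM in Gala, and at 0.84 RPKM in Reinette Parmentier, 0.18 RPKM in Patte de Loup and 0.17 RPKM in St Edmund Pippin. The lowest russeted values rest on 8 and 5 reads, with upper bounds of 0.358 and 0.402 RPKM, so their order is open to counting error. The order of the other 4 varieties was that of the first copy. The means were 9.89 ± 4.96 RPKM in waxy and 0.397 ± 0.384 RPKM in russeted exocarp, a ratio of 24.9.

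The first copy exceeded the second 10.8-fold in AG94, 12.7-fold in AF42 and 13.2-fold in Gala. In Reinette Parmentier the ratio was 11.9 (interval 8.65 to 16.9), an interval that overlaps those of all 3 waxy varieties. The ratios of 8.32 in Patte de Loup and 5.54 in St Edmund Pippin had intervals of 3.96 to 20.1 and 2.09 to 18.6, which also overlap them. At this depth no difference in the share of the copies between skin types was detectable.

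The transporter gene MDP0000094058 was highest in AG94, at 178 RPKM, and was read at 121 RPKM in AF42 and 77.9 RPKM in Gala. In russeted exocarp it was read at 11.4 RPKM in Reinette Parmentier, 2.81 RPKM in St Edmund Pippin and 1.99 RPKM in Patte de Loup. Its means were 126 ± 50.2 RPKM in waxy and 5.40 ± 5.22 RPKM in russeted exocarp, a ratio of 23.3. Unlike the ABCG11 copies, which were 1.64 and 1.39 times higher in AF42 than in AG94, this gene was 1.47 times higher in AG94 (interval 1.41 to 1.54).

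The transporter gene MDP0000149064 was read at 94.2 RPKM in AG94, 89.7 RPKM in AF42 and 54.5 RPKM in Gala, and AG94 and AF42 did not differ beyond counting error (ratio 1.05, interval 0.993 to 1.11). It was read at 10.4 RPKM in Reinette Parmentier, 3.14 RPKM in Patte de Loup and 0.6 RPKM in St Edmund Pippin. The spread among russeted varieties, 17.3-fold from highest to lowest, was the widest of the 5 genes, while that among waxy varieties was 1.73-fold. The means were 79.5 ± 21.7 RPKM in waxy and 4.71 ± 5.09 RPKM in russeted exocarp, a ratio of 16.9.

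**Figure D1:**
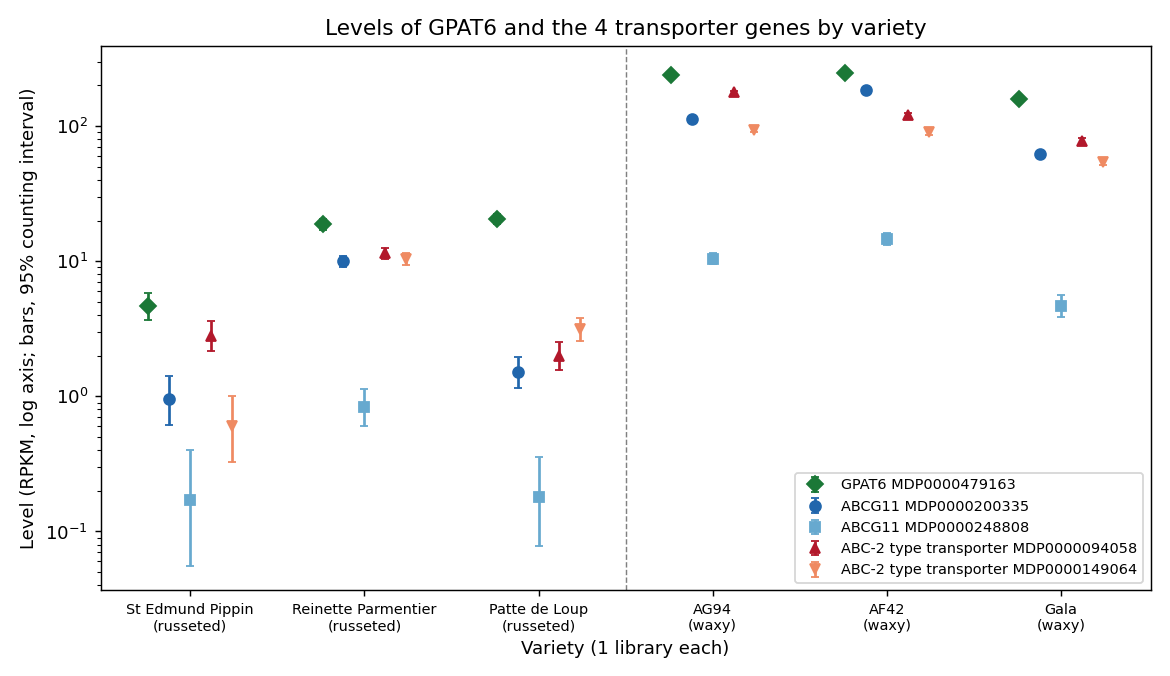
Level of each gene in each variety, in RPKM on a log axis, with 1 library per variety, the russeted varieties on the left and the waxy varieties on the right; bars are exact 95% Poisson intervals of the reads. All 5 genes lie higher in the 3 waxy varieties, and GPAT6 is level between Reinette Parmentier (18.8 RPKM) and Patte de Loup (20.6 RPKM) while every transporter gene is lower in Patte de Loup.

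The pair matched to AT3G21090 changed order among the russeted varieties. MDP0000094058 exceeded MDP0000149064 by 1.89-fold in AG94, 1.35-fold in AF42 and 1.43-fold in Gala. It exceeded it by 4.67-fold in St Edmund Pippin (interval 2.59 to 9.01, on 65 and 14 reads), while in Patte de Loup the ratio was 0.634 (interval 0.463 to 0.863, on 70 and 111 reads). In Reinette Parmentier the genes did not differ beyond counting error (ratio 1.10, interval 0.957 to 1.26). Each of these is 1 library, so the spread between fruits or trees of a variety is not known.

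Fitted with edgeR, the log2 fold changes of russeted over waxy exocarp were -3.87 ± 0.68 (SE) for GPAT6, -4.84 ± 0.88 and -4.59 ± 0.72 for the ABCG11 copies MDP0000200335 and MDP0000248808, -4.54 ± 0.76 for MDP0000094058 and -4.07 ± 0.81 for MDP0000149064. All 5 passed the low-count filter, and all 5 lay past the edgeR threshold of an adjusted p under 0.05 in the lower direction. Of all tested genes 9.31% did so, and of all listed genes 24.3% had all 3 russeted levels below all 3 waxy ones, as these 5 do. Since the genes were chosen with this contrast known, nothing is read from these counts. In the authors' deposited table the signed folds ran from -13.4 for GPAT6 to -26.2 for MDP0000200335.

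The median log2 fold change of all tested genes was 1.19 when scaled by mapped reads and 0.19 with TMM factors, a scaling computed on the listed genes. Relative to those medians GPAT6 stood at -5.06 under both scalings, and MDP0000200335 at -6.03 and -5.93. The transporter folds were made smaller by Reinette Parmentier. Without it the log2 fold changes were -6.59 for MDP0000200335, -5.77 for MDP0000248808, -5.71 for MDP0000094058 and -5.39 for MDP0000149064, and that of GPAT6 was -4.09.

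Set against its own waxy mean, GPAT6 stood at 8.73% in Reinette Parmentier, 9.58% in Patte de Loup and 2.17% in St Edmund Pippin. The transporter genes stood between 8.37% and 13.1% of their waxy means in Reinette Parmentier. In Patte de Loup they stood between 1.26% and 3.95%, and in St Edmund Pippin between 0.755% and 2.24%. GPAT6 and the transporter genes thus stood at like fractions of their waxy means in Reinette Parmentier, and in Patte de Loup the transporter genes stood lower than GPAT6.

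The relation was also taken within each library, as the log2 ratio of a transporter's RPKM to that of GPAT6, which does not depend on the scaling between libraries. No pooled correlation over the 6 libraries is given, because they form 2 clusters of 3. All 4 transporter genes were below GPAT6 in every library. In waxy exocarp the mean log2 ratio was -0.96 ± 0.47 (SD, n = 3) for MDP0000200335, -4.56 ± 0.49 for MDP0000248808, -0.82 ± 0.35 for MDP0000094058 and -1.45 ± 0.10 for MDP0000149064. The last gene kept a narrow relation to GPAT6 in waxy skin, with ratios of 0.396 in AG94, 0.36 in AF42 and 0.346 in Gala.

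Among russeted varieties the log2 ratios were wide apart. For MDP0000200335 the log2 ratio was -0.91 in Reinette Parmentier, -2.29 in St Edmund Pippin and -3.77 in Patte de Loup. For MDP0000248808 it was -4.48 in Reinette Parmentier, -4.76 in St Edmund Pippin and -6.83 in Patte de Loup. Patte de Loup was the lowest of the 6 libraries for both copies, while Reinette Parmentier lay within the waxy range for both. St Edmund Pippin lay below that range for the first copy and within it for the second, the latter on 5 reads.

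For MDP0000094058 the log2 ratio was -0.72 in Reinette Parmentier, -0.73 in St Edmund Pippin and -3.37 in Patte de Loup, so that of the russeted varieties Patte de Loup alone lay outside the waxy range of -1.04 to -0.42. For MDP0000149064 it was -0.85 in Reinette Parmentier, -2.71 in Patte de Loup and -2.96 in St Edmund Pippin. Here Reinette Parmentier lay above the waxy range of -1.53 to -1.34, and the other 2 lay below it.

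Summed over the 4 transporter genes, the RPKM came to 395 in AG94, 410 in AF42 and 199 in Gala, which is 1.66, 1.65 and 1.26 times the RPKM of GPAT6. The sum was 32.7 RPKM in Reinette Parmentier, 1.74 times GPAT6. It was 4.53 RPKM in St Edmund Pippin and 6.82 RPKM in Patte de Loup, 0.97 and 0.331 times GPAT6. The more abundant ABCG11 copy held 45.0% of the sum in AF42 and between 21.0% and 31.1% in the other 5 libraries.

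**Figure D2:**
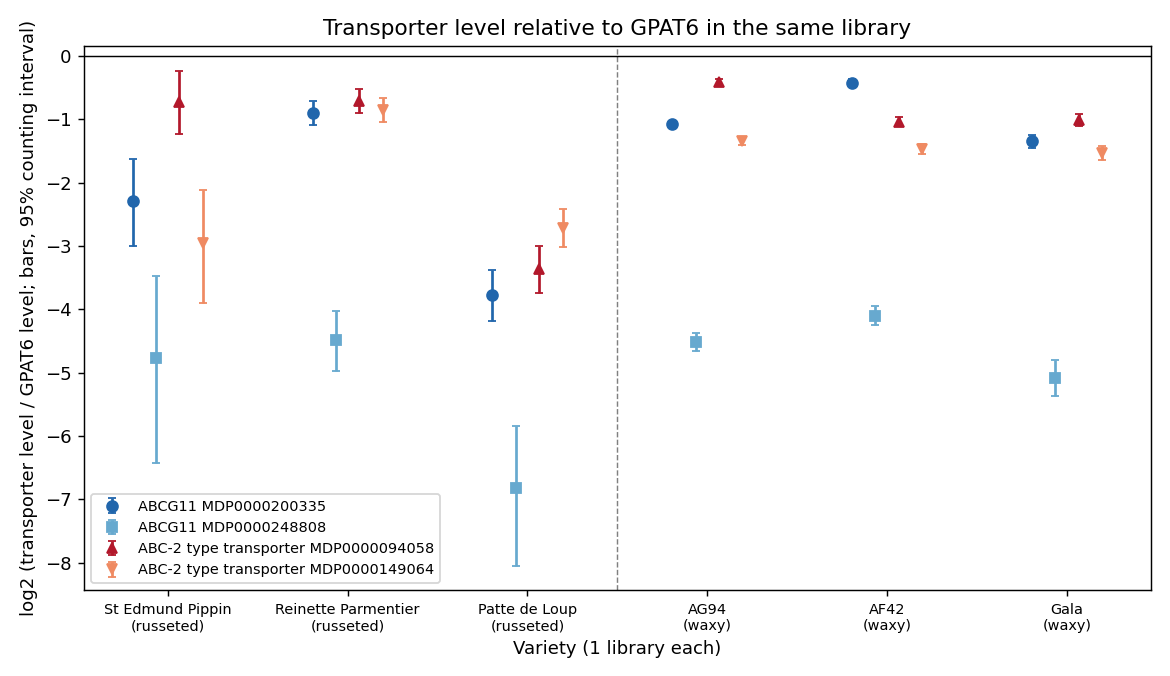
Log2 ratio of each transporter gene's RPKM to that of GPAT6 in the same library, by variety, with exact 95% counting intervals as bars and 0 marking equal levels. Patte de Loup has the lowest ratio for MDP0000200335 (-3.77), MDP0000248808 (-6.83) and MDP0000094058 (-3.37), while Reinette Parmentier lies close to the 3 waxy varieties.

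Between Reinette Parmentier and Patte de Loup the difference of MDP0000200335 was 6.63-fold (interval 5.05 to 8.83), that of MDP0000094058 5.72-fold (4.44 to 7.47), that of MDP0000248808 4.62-fold (2.14 to 11.4) and that of MDP0000149064 3.31-fold (2.67 to 4.12), all higher in Reinette Parmentier. A difference of at least 3-fold in that direction was found in 56 of the 1261 listed genes (4.44%). The 56 include the 4 transporter genes, and the cutoff lies just under their smallest ratio, so nothing is read from their passing it. GPAT6, at a ratio of 0.911, stood in the middle of the listed genes, 50.1% of which had a lower ratio. The intervals of the 4 transporter genes did not meet that of GPAT6.

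St Edmund Pippin differed from Reinette Parmentier in all 5 genes, from 4.02-fold lower in GPAT6 to 17.3-fold lower in MDP0000149064. Against Patte de Loup it was 4.41-fold lower in GPAT6 and 5.23-fold lower in MDP0000149064, while the intervals of the other 3 transporter genes included 1. Within waxy skin all 5 genes were lowest in Gala, AF42 exceeding it by 1.55-fold in MDP0000094058 to 3.11-fold in MDP0000248808. On the scale of log2(RPKM + 1) the SD among russeted varieties was 1.08 for GPAT6, 1.35 for MDP0000200335, 1.10 for MDP0000094058 and 1.42 for MDP0000149064, against a median of 0.48 over all listed genes. It was 0.37 for MDP0000248808, whose low RPKM the added 1 compresses.

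**Figure D3:**
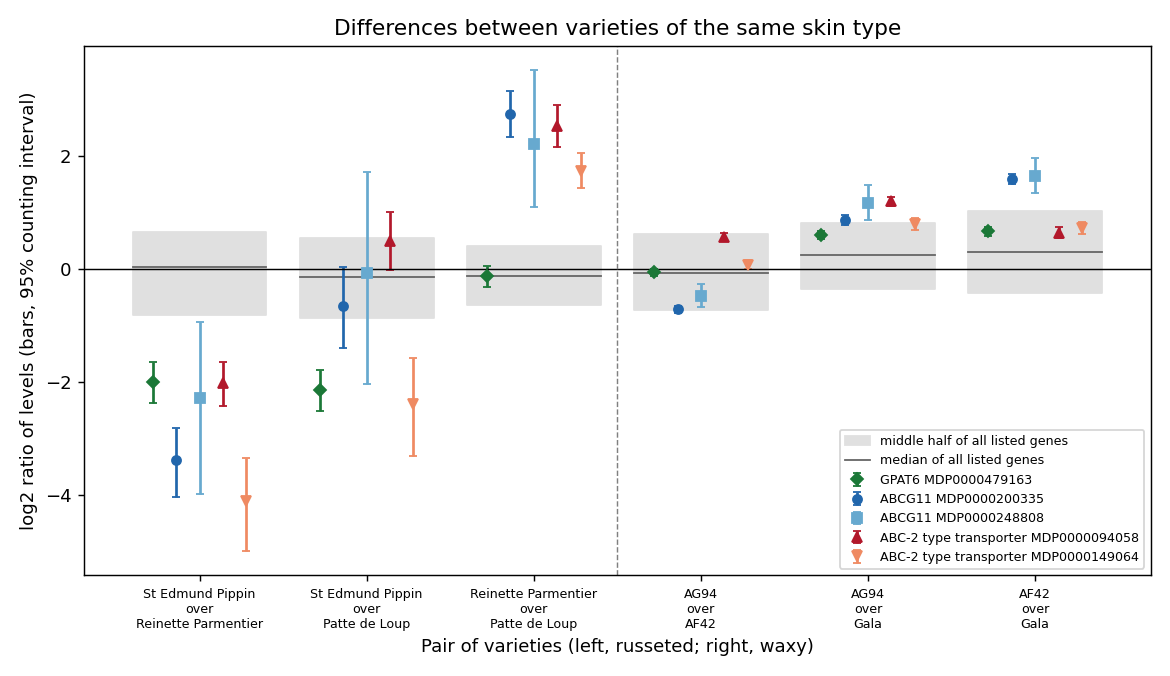
Log2 ratio of levels between the 2 varieties of each pair within a skin type, with exact 95% counting intervals as bars; the grey boxes run between the quartiles of the 1261 listed genes and the grey lines their medians. For Reinette Parmentier over Patte de Loup the 4 transporter genes lie between 1.73 and 2.73 and GPAT6 lies at -0.13.

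Other genes of the cuticle were not alike in their ratio between those 2 russeted varieties. KCS10, a 3-ketoacyl-CoA synthase of the epidermis, was 8.21-fold higher in Reinette Parmentier in MDP0000235280 (interval 5.10 to 13.97) and 3.58-fold higher in MDP0000134273. CER3 (MDP0000165547), which acts in alkane formation, was 5.81-fold higher there. The wax regulator MYB94 (MDP0000149535; role known from Arabidopsis) was level like GPAT6, with a ratio of 0.996 (interval 0.759 to 1.31). PAS2 (MDP0000337353), a dehydratase of fatty acid elongation, had a ratio of 0.877 (interval 0.802 to 0.96) but with 39.6% of its reads unique to it its level is uncertain, and KCS2 (MDP0000625646) was the other way, 1.59 times higher in Patte de Loup. KCS6 (MDP0000392495) lay between, 1.43-fold higher in Reinette Parmentier (interval 1.22 to 1.68). The CER10 genes, of fatty acid elongation, had ratios of 0.943 in MDP0000062802 (interval 0.788 to 1.13) and 0.773 in MDP0000555908 (0.429 to 1.38). With 33.8% and 35.9% of their reads unique, their levels are uncertain too. CER1 (MDP0000461409) had 4 reads in either library. All of these are single libraries per variety.

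Likeness of pattern was measured as the root mean square difference of centred log2(RPKM + 1) profiles over the 6 varieties, where 0 is an identical pattern; it is a description of libraries that share their scaling and were used to choose the table. Over the whole profile the gene nearest to GPAT6 was an NAD(P)-binding Rossmann-fold gene (MDP0000119035, difference 0.41), followed by SVB (MDP0000179031, 0.45) and the transporter gene MDP0000149064 (0.48). GPAT6 was in turn the third nearest gene to MDP0000149064. The other 3 transporter genes ranked 18 to 20 of 1260 in their likeness to GPAT6.

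An HXXXD-type acyltransferase gene, MDP0000242697, was the nearest gene to both MDP0000094058 (0.33) and MDP0000149064 (0.40). ABCG11 MDP0000200335 was nearest to KCS10 MDP0000235280 (0.39) and to the WSD1-like acyltransferase gene MDP0000701887 (0.40), of a family that makes wax esters. The low copy MDP0000248808 was nearest to a second HXXXD-type gene, MDP0000126620 (0.32), then to CCD4 (MDP0000555220, 0.34), a carotenoid cleavage gene, and PGP2 (MDP0000286528, 0.38), an ABC transporter of another subfamily.

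With each phenotype mean removed, which leaves only the variation between varieties of a skin type, other genes came nearest to GPAT6. The nearest genes to GPAT6 were then OPR3 (MDP0000186231, difference 0.15), of jasmonate synthesis, PAS2 (MDP0000337353, 0.18) and the chaperone gene CLPB3 (MDP0000168167, 0.18). MDP0000149064 ranked 189 of 1260 in likeness to GPAT6 (difference 0.47), MDP0000248808 386 (0.60), MDP0000200335 586 (0.72) and MDP0000094058 671 (0.77), where the median of all other genes was 0.75. Seen from the transporter genes, GPAT6 ranked 29 for MDP0000149064, 143 for MDP0000200335, 452 for MDP0000094058 and 651 for MDP0000248808. The difference of MDP0000149064 to GPAT6 was like that over the whole profile (0.48), but the median of all other genes had fallen from 2.64. Its rank in likeness to GPAT6 thus went from 3 to 189, and MDP0000094058 was no nearer than the median gene.

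Likeness among the transporter genes was uneven. MDP0000149064 ranked 5, MDP0000094058 14 and MDP0000248808 37 of 1260 in likeness to MDP0000200335. MDP0000149064 was nearer to GPAT6 (0.47) than to MDP0000094058 (0.53) or MDP0000248808 (0.67), and for MDP0000248808 the other transporter genes ranked 440, 557 and 819. The gene nearest to MDP0000200335 was again KCS10 MDP0000235280 (0.16), followed by a fatty acid hydroxylase gene (MDP0000477496, 0.28) and MDP0000701887 (0.31). MDP0000094058 was nearest to MDP0000701887 (0.23), a terpenoid cyclase gene (MDP0000227287, 0.29) and an HXXXD-type gene (MDP0000253113, 0.33). MDP0000149064 was nearest to the pectin methylesterase gene PME44 (MDP0000141033, 0.13), KCS10 MDP0000235280 (0.29) and LUH (MDP0000250424, 0.32), a transcriptional co-regulator. MDP0000248808 was nearest to a disease resistance gene (MDP0000901201, 0.13), a DCD domain gene (MDP0000175052, 0.16) and the homeobox gene ANL2 (MDP0000204639, 0.17), but its low RPKM leaves it little variation to match.

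The pathway around these genes was thinly represented among the listed genes. Of the cutin synthesis list GPAT6 alone was listed, and of the cuticle export list the ABCG11 copies alone. MDP0000094058 and MDP0000149064 are not on that export list, and a role of theirs in cuticle export was not tested. The regulator, elongation and wax lists added 10 tested genes, of which 7 fell in russeted exocarp, 0 rose and 3 missed the threshold (edgeR, adjusted p under 0.05), against 9.31% of all tested genes that fell and 19.2% that rose. Over all tested genes 116 fell and 239 rose, and with TMM factors 297 fell and 43 rose. At an unadjusted p under 0.05 (edgeR), 10 were lower and 0 higher. No share of all tested genes was taken at that threshold, so nothing is read from this count. DESeq2 called 10 lower and 0 higher under either scaling. Of all tested genes it called 265 lower and 540 higher with mapped reads, and 320 lower and 114 higher with its own size factors. The median log2 fold change of the 10 genes was -2.87, against 1.19 over all tested genes. With 1 library left out 5 to 6 fell. PAS2 (edgeR adjusted p = 0.0496) and CER10 MDP0000062802 (0.0385) lay nearest the threshold, with 39.6% and 33.8% of their reads unique. PAS2 lost its call whichever library was left out, and CER10 kept its call only without Gala (0.0396).

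The strongest of the fallen genes were near the 5 in size. KCS6 (MDP0000392495), of wax precursor elongation, was read at 198 ± 69.6 RPKM in waxy and 8.29 ± 6.86 RPKM in russeted exocarp. CER1 (MDP0000461409), needed for alkanes, was read at 2.66 ± 1.54 RPKM and 0.157 ± 0.0723 RPKM, and MYB94 (MDP0000149535) at 33.7 ± 16.6 RPKM and 3.59 ± 2.26 RPKM. KCS10 had log2 fold changes of -5.73 ± 0.99 in MDP0000235280 and -4.36 ± 0.77 in MDP0000134273, on either side of the ABCG11 copies.

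Suberin genes ran the other way. Of the 10 tested genes of the suberin monomer and suberin export lists 10 rose and 0 fell (edgeR), against 19.2% and 9.31% of all tested genes. DESeq2 with mapped reads called 10 higher and 0 lower, where it called 540 of all tested genes higher and 265 lower. At an unadjusted p under 0.05 (edgeR) 10 were higher and 0 lower, but no share of all tested genes was taken at that threshold. With TMM factors 3 rose, where 43 of all 1246 tested genes did. DESeq2 with its own size factors called 8 higher, where it called 114 of all tested genes higher. With 1 library left out edgeR called 7 to 10. The 10 are gene models, so copies of CYP86A1, CYP86B1 and MYB93 are counted apart. MYB93 (MDP0000228252 and MDP0000320772), although on the monomer list, is a transcription factor and not a gene of monomer synthesis. MYB93 MDP0000228252 and the export gene MDP0000241976 had 19.55% and 15.5% of their reads unique. GPAT5 (MDP0000150502), the acyltransferase of suberin precursors and the counterpart of GPAT6, exceeded it in all russeted libraries. GPAT6 stood at 0.345 of GPAT5 in St Edmund Pippin, 0.449 in Patte de Loup and 0.873 in Reinette Parmentier, and at 75.7, 230 and 319 times GPAT5 in AG94, AF42 and Gala, where GPAT5 had 79, 17 and 7 reads.

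Of the 10 other ABC transporter genes tested, the edgeR test placed 3 higher and 2 lower in russeted exocarp, and 5 missed the threshold. Of all tested genes 19.2% were higher and 9.31% lower, so the counts of this list lie near the background and are no result about ABC transporters as a group. At an unadjusted p under 0.05 (edgeR) 7 were higher and 2 lower, but no share of all tested genes was taken at that threshold. The 2 that fell were P-glycoproteins, full-size transporters of another subfamily. PGP2 (MDP0000286528) was read at 29.9, 56.0 and 11.9 RPKM in AG94, AF42 and Gala and at 0.82, 3.06 and 1.31 RPKM in St Edmund Pippin, Reinette Parmentier and Patte de Loup (log2 fold change -4.23 ± 0.71, edgeR adjusted p = 0.00393). PGP13 (MDP0000124006) had a log2 fold change of -3.35 ± 0.85 (edgeR adjusted p = 0.0279), and its call was lost without St Edmund Pippin (0.119), Patte de Loup (0.0781) or AF42 (0.0627), where 1 gene fell.

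The 3 that rose included both suberin export genes, which are ABC-2 type genes like the 4 described here. MDP0000241976, matched to AT5G13580, had a log2 fold change of 3.19 ± 0.68 with 15.5% of its reads unique to it, so its level is uncertain. MDP0000265619, matched to AT2G37360, had one of 2.26 ± 0.56 and lost its call without Reinette Parmentier (edgeR adjusted p = 0.0543), Patte de Loup (0.145), AF42 (0.0673) or Gala (0.0901). MRP3 (MDP0000226629), of a subfamily that carries conjugates, rose by 2.69 ± 0.61 on the log2 scale and lost its call without Patte de Loup (0.0539) or AG94 (0.0596). TMM factors left 0 of the 10 higher and 2 lower, where 43 of all tested genes were higher and 297 lower. At an unadjusted p under 0.05 with TMM factors (edgeR) 3 were higher, again without a share of all tested genes. Leaving out Patte de Loup left 1 higher.

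**Figure D4:**
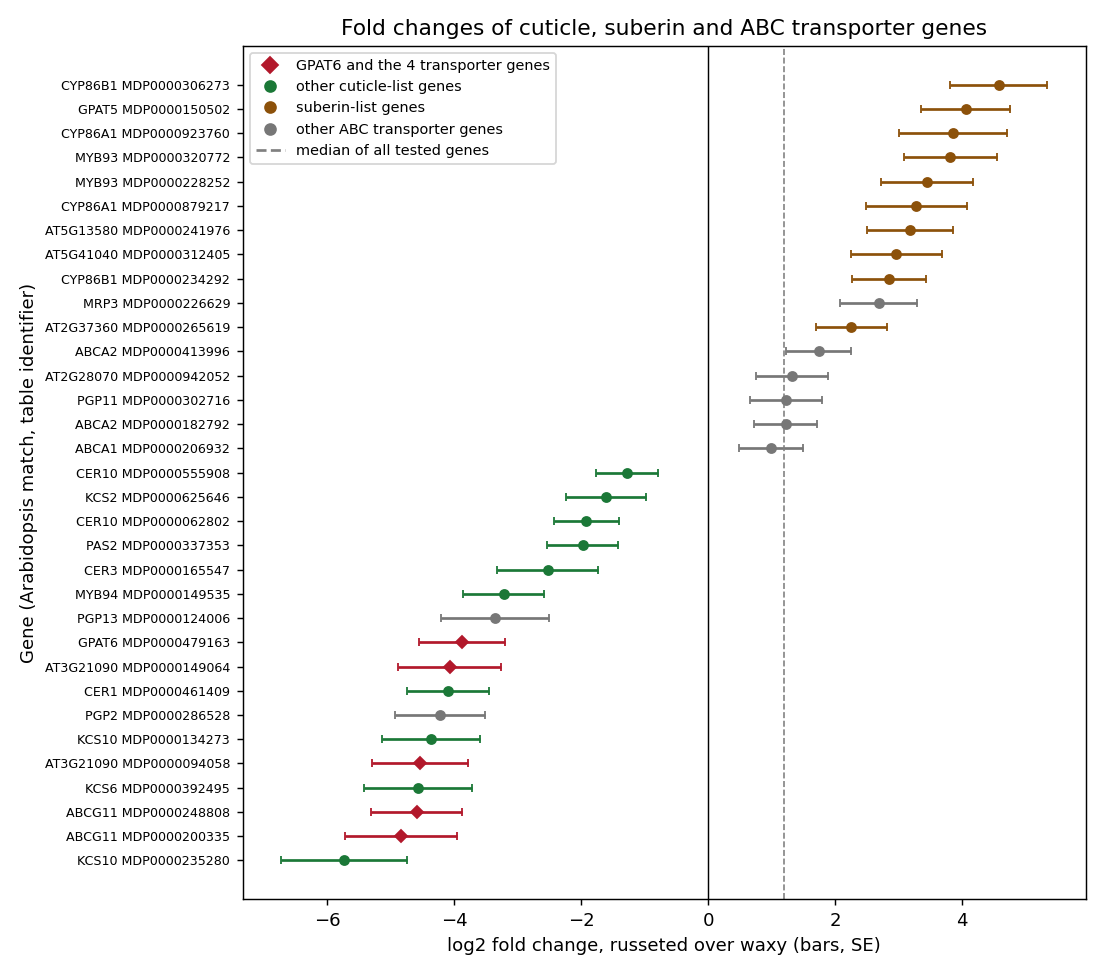
Log2 fold change of russeted over waxy exocarp (edgeR, bars are SE) for the cuticle, suberin and ABC transporter genes listed, with GPAT6 and the 4 transporter genes as red diamonds and the median of all tested genes, 1.19, as a dashed line. The 5 genes lie between -4.84 and -3.87, among the cuticle genes, and the 10 suberin genes lie on the other side of 0.

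Levels of markers of epidermis, cork and phloem are given by skin type. The listed epidermis markers are genes of the elongation list, and the cork markers are genes of the suberin monomer list. Their sums thus repeat the counts of those lists and are no separate evidence. The epidermis markers listed, 3 genes for KCS10 and KCS6, summed to between 16.0 and 39.0 RPKM in russeted and between 323 and 886 RPKM in waxy exocarp, and the other 4 of the 6 epidermis markers have no listed gene. The 6 cork genes, for all 4 cork markers, summed to between 104 and 530 RPKM in russeted and between 16.5 and 61.0 RPKM in waxy exocarp. Of 5 phloem markers PP2-A1 (MDP0000924331) alone is listed; it was read at 3.70 to 34.3 RPKM in russeted and 0.74 to 5.17 RPKM in waxy exocarp, and 0 of the 3 xylem markers are listed. The order of the russeted varieties in the cork sum, 104 in St Edmund Pippin, 351 in Reinette Parmentier and 530 in Patte de Loup, was that of the GPAT6 levels, although GPAT6 in the last 2 did not differ beyond counting error, and not that of any transporter gene. The epidermis sum was 17.1 RPKM in St Edmund Pippin, 39.0 RPKM in Reinette Parmentier and 16.0 RPKM in Patte de Loup. Among the russeted varieties it was highest in Reinette Parmentier, like every transporter gene, and its order there was that of MDP0000094058. For that gene St Edmund Pippin and Patte de Loup did not differ beyond counting error (ratio 1.41, interval 0.99 to 2.00). The part of tissue makeup in the levels of GPAT6 and the transporter genes was not tested.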

How the data were processed

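Skin was peeled as slices of 5 mm without flesh, 250 mg of it was extracted, and 3 µg of RNA went into unstranded TruSeq libraries amplified over 15 PCR cycles, per the labels' protocols. The authors deposited counts of total and unique gene reads, RPKM values and phenotype means of RPKM. They also deposited a signed fold (a score), its log2, and the p-value and false discovery rate of Baggerley's test. The file headers name CLC Genomics Workbench 6.5 for these steps; for aligner and build, nothing was found in the labels or headers. All 1261 lengths were multiples of 3, hence coding lengths.

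Mapped reads were recovered from reads, length and RPKM (median over genes with at least 200 reads). Total gene reads of 1246 genes that passed edgeR's low-count filter were fitted with edgeR 4.0.16 in R 4.3.3 (quasi-likelihood, two-sided, mapped reads as library sizes). Benjamini-Hochberg adjustment took 6449 genes as its total, as the deposited one did. The code of the fit was run on simulated data with less spread than these data, whose common biological coefficient of variation was 0.48. That run therefore does not give the error rate of the fit here. DESeq2 1.42.0 was an alternative. Ratios of read counts carry exact (Clopper-Pearson) 95% intervals; PCR reads have no molecular identifiers, so intervals cover counting error only.

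The 5 genes and all gene lists were chosen with earlier results of these data known. Named genes are the 5, up to 3 per list and direction with the smallest p, and the 3 described genes nearest to each of the 5 in pattern (pseudocount 1 RPKM). Further genes compared between Reinette Parmentier and Patte de Loup were chosen after their values were seen. The RefSeq gene table matched 0 of the 1261 identifiers, and no sequences of these gene models were used here.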

Additional observations from a re-analysis of the deposited data

How the results depend on the processing

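GPAT6 and the 4 transporter genes were chosen with the contrast of skin types known, from a table selected for it, so their direction and their place past the threshold under the alternatives are no sign of stability, and only the sizes are given. TMM factors and DESeq2's own size factors moved the log2 fold change of GPAT6 to -4.87 and -4.88, that of MDP0000248808 to -5.51 and -5.52, and that of MDP0000094058 to -5.47 and -5.48. With 1 library left out the log2 fold change ranged from -6.59 to -4.37 for MDP0000200335, -5.77 to -4.20 for MDP0000248808, -5.71 to -4.14 for MDP0000094058 and -5.39 to -3.55 for MDP0000149064, each at its largest without Reinette Parmentier.

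Counts over all genes depended on the scaling. Against 239 higher and 116 lower genes, TMM factors gave 43 and 297, DESeq2 with its own size factors 114 and 320, DESeq2 with mapped reads 540 and 265, and adjustment over tested genes only 597 and 290. With 1 library left out they ranged from 134 to 194 higher and from 67 to 105 lower. The number of other ABC transporter genes that rose was 0 with TMM factors, 5 with DESeq2 on mapped reads and 6 adjusted over tested genes only, and with 1 library left out 1 to 3 rose and 1 to 2 fell. Suberin genes that rose numbered 3 with TMM factors, 8 with DESeq2's own size factors and 7 to 10 with 1 library left out. Of the 30 nearest-gene places, 16 held the same gene with a pseudocount of 0.1 RPKM. The causes of these shifts were not tested.

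The extract numbers name different varieties in either skin type and were taken as names, not as pairs. Deviations of same-numbered libraries correlated at -0.08, -0.02 and -0.11. Whether a number marks a shared batch was not tested, and these few correlations of centred values cannot decide it. With the replicate block 209 genes were higher and 110 lower, 5 cuticle genes fell, 8 suberin genes rose, and the log2 fold change of GPAT6 was -4.08.

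Depth limits MDP0000248808 most, with 5 and 8 reads in St Edmund Pippin and Patte de Loup. An added 1 RPKM moved its log2 ratio to GPAT6 there from -4.76 to -2.28 and from -6.83 to -4.19. With 1 library per variety, differences between varieties of a skin type have counting intervals only.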
